A study of Mus musculus with 16 samples.

Results

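The genes described here are 10 members of the circadian clock and its output layer, measured by RNA-seq in whole mouse kidney: Arntl (which encodes BMAL1), Clock, Per1, Per2, Per3, Nr1d1, Nr1d2, Dbp, Hlf and Tef. They were taken from the 23935 gene symbols of the deposited table by symbol, and no value of theirs entered the rule. The list itself was chosen with earlier results of these data known, so its counts below are not an independent result. All 10 passed the filter on low values and were among the 12960 genes tested. The 16 libraries came from wild-type mice in 4 groups of 4, labelled PBS, Cisplatin, Cisplatin with NMN (nicotinamide mononucleotide) and Cisplatin with NR (nicotinamide riboside). NMN and NR are precursors of the coenzyme NAD and were given ahead of cisplatin, a platinum drug that injures the tubules of the kidney. Kidneys were taken 3 days after cisplatin. Every kidney that received a precursor also received cisplatin, and a group with a precursor alone was not analysed here. For strain, sex, age, doses and the hour at which the kidneys were taken, nothing is stated in the sources used here. Since no label ties the 4 libraries of a group to separate animals, every p-value rests on the spread between these libraries alone, which may be technical.

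The clock runs in nearly every cell as a loop of transcription and repression. BMAL1 and CLOCK bind E-boxes as a pair and drive Per, Cry, Nr1d1, Nr1d2, Dbp, Hlf and Tef. PER and CRY proteins then repress that pair, and the nuclear receptors encoded by Nr1d1 and Nr1d2 (REV-ERBα and REV-ERBβ) repress Arntl. DBP, HLF and TEF are the PAR bZIP activators, which bind D-boxes and carry the rhythm to many enzymes and transporters. NFIL3 competes with them as a repressor at the same boxes. In the kidney the clock is known for rhythms in salt transport, blood flow and drug handling. Since each of these transcripts rises and falls over the day, and the hour of collection is not known, a change in level and a change in the time of the cycle cannot be told apart in these data.

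The sequences below show where runs of letters that match elements of the loop stood in the members' own promoters. RefSeq (GRCm38.p6) held 14 promoters of 300 bases, 250 before the start and 50 from it on, for 9 of the members, all but Per2. The E-box CACGTG was found in 3 of the 14, against 7.17% of 32544 mouse promoters of the same length. It stood 166 bases before the first listed start of Per1, 127 bases before the first listed start of Tef (inside an exon of another Tef transcript) and 138 bases before the second listed start of Tef. The D-box, searched as TTATGTAA or TTACGTAA, was found in 1 of the 14, that of Per3, against 1.05% of all promoters. Both strands were searched, and none of these motifs overlapped another. A match is a run of letters and not a measured binding site. Of the genes named above as driven through E-boxes, Nr1d1, Nr1d2, Dbp, Hlf and Per3 had no E-box match in the listed promoters. The windows are given 5′ to 3′ along the gene, with the motif in capitals.
Per3 promoter, minus strand, chr4:151044790-151044896, 2 D-boxes: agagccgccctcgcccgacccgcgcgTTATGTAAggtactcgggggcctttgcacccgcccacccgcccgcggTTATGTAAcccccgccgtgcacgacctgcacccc
Per1 promoter, plus strand, chr11:69098757-69098814, E-box: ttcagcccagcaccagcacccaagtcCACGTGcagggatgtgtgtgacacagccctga
Tef promoter, second listed start, plus strand, chr15:81811250-81811307, E-box: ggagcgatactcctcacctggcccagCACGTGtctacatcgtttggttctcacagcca

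Per3 therefore carries a pair of D-boxes before its start, at 205 and 158 bases upstream. A cyclic AMP element (TGACGTCA) stood 9 bases before the start of Hlf, against 1.8% of all promoters. The core of the element that REV-ERB proteins bind (TAGGTCA or TGGGTCA) was found in 1 of the 14 promoters, 31 bases into the second listed start of Arntl, against 6.48% of all promoters.

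In the GRCm38 annotation (GENCODE vM21) all 10 are protein-coding genes. Arntl lies at chr7:113207465-113314126 and Dbp on the same chromosome at chr7:45705088-45710203. Clock lies at chr5:76209868-76304792, Per2 at chr1:91415982-91459324 and Per3 at chr4:151003652-151044665. Per1 (chr11:69095217-69109960), Nr1d1 (chr11:98767932-98775333) and Hlf (chr11:90336536-90390895) share chromosome 11. Nr1d2 lies at chr14:18204054-18239127 and Tef at chr15:81802421-81826863. Some exons overlap a gene on the opposite strand: 539 exon bases of Dbp (18.01% of its exon bases) with Sphk2, 263 of Nr1d1 (8.55%) with Thra, 193 of Tef (2.45%) with Gm17597 and 33 of Arntl (0.439%) with Gm45355. No source used here states whether the counting used strand, so reads of the overlapping genes cannot be told apart in those stretches. Sphk2 was not called with cisplatin (log2 change 0.27 ± 0.12, SE, adjusted p = 0.0557), whereas Thra fell (-0.93 ± 0.15, adjusted p = 2.97e-05).

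Levels are in TPM, a measure of transcript abundance that is corrected for transcript length and so can be compared between genes. In PBS kidney the output genes Dbp, at 166 ± 34 TPM (mean ± SD, n = 4 for every group), and Tef, at 124 ± 20.3, were the most abundant members. Then came Nr1d1 (41.2 ± 10.8), Nr1d2 (37.8 ± 5.71), the output gene Hlf (27.3 ± 6.76), Per1 (18.5 ± 2.97), Per3 (11.9 ± 2.45) and Per2 (11.6 ± 3.87). Clock (3.76 ± 0.764) and Arntl (0.332 ± 0.196) were the lowest. The values of Dbp and Tef overlapped, as did those of Nr1d1 and Nr1d2, Nr1d2 and Hlf, Hlf and Per1, and Per3 and Per2. The steps from Tef to Nr1d1, from Per1 to Per3, from Per2 to Clock and from Clock to Arntl were larger than the spread. In cisplatin kidney the order began with Tef, Per1, Nr1d1 and Dbp and ended with Per3, Hlf and Arntl. Among the genes at 1 TPM or more, Dbp stood at percentile 94.8 in PBS and 63.2 in cisplatin. The order with NMN or NR again began with Dbp, Tef, Nr1d1 and Nr1d2 and ended with Clock and Arntl.

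**Figure D1:**
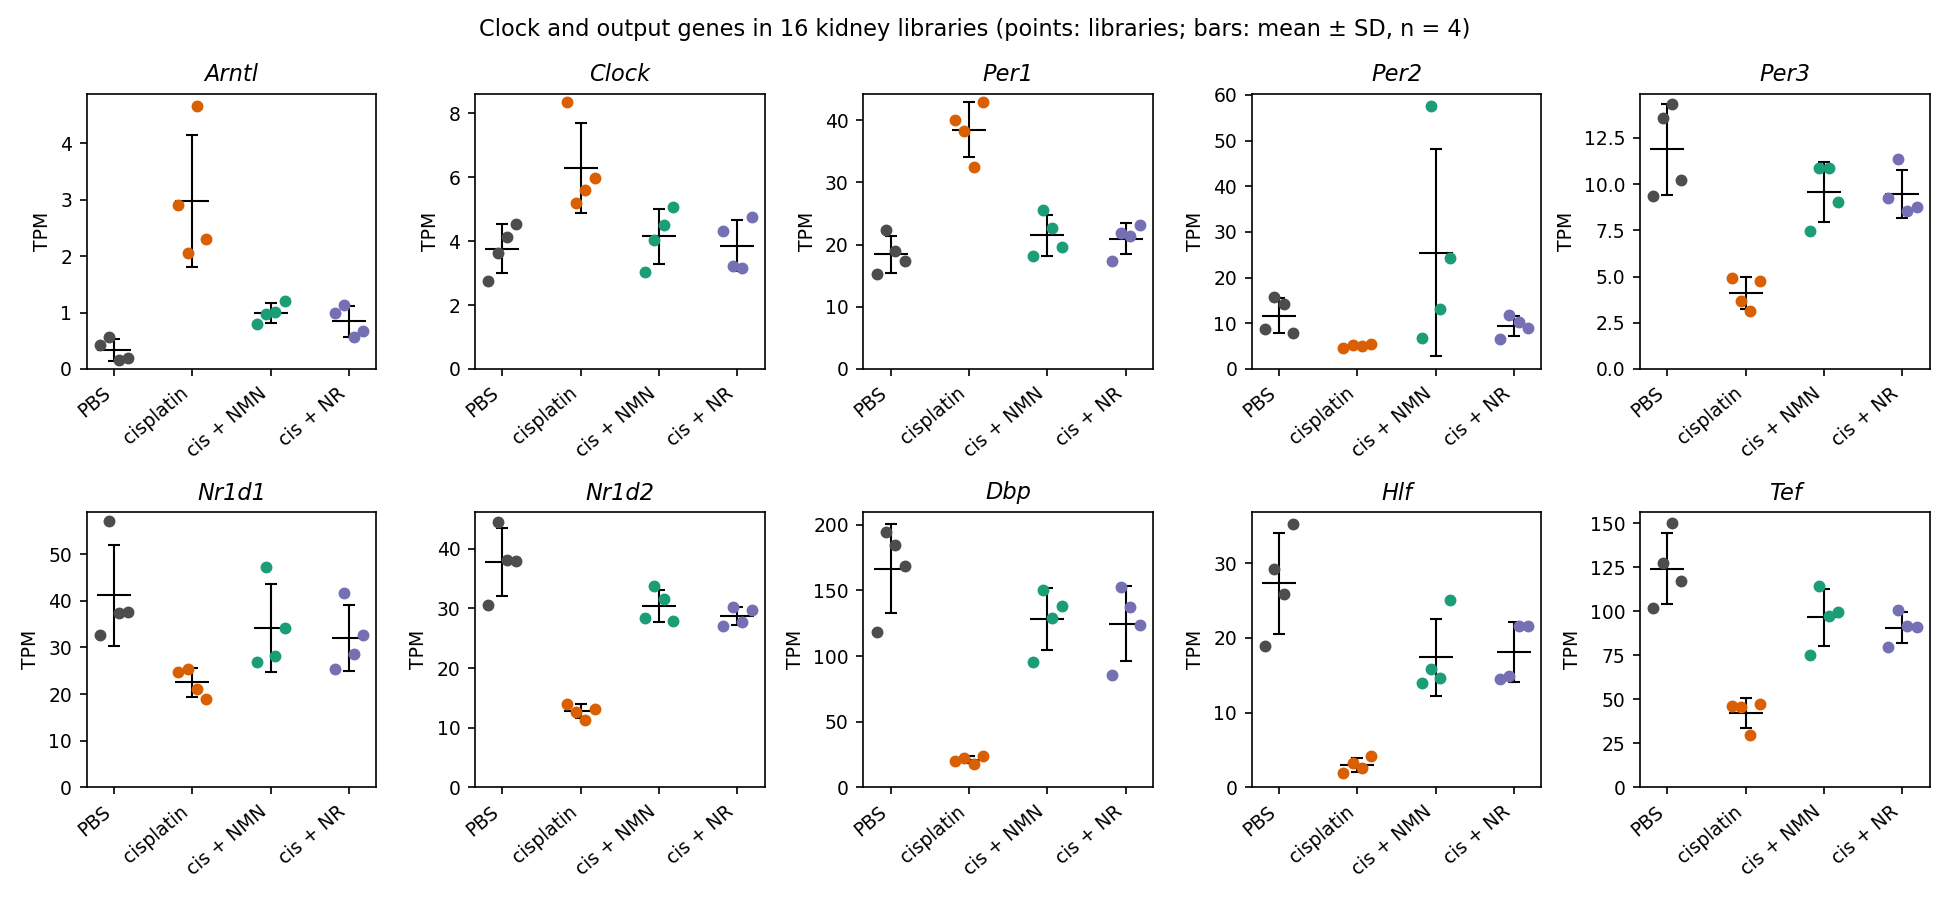
TPM of each of the 10 genes in every library, with the groups in the order PBS, cisplatin, NMN and NR, with points in library-number order and bars at the mean ± SD (n = 4). Arntl, Clock and Per1 have their highest mean in cisplatin and the other 7 genes their lowest, and library 2 with NMN holds the highest Per2 value, 57.56 TPM.

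The series as a whole bears on these genes as follows. The listed TPM summed to 860428 to 903678 per library, 11535 to 12549 genes reached 1 TPM, and the sequencing depth is unknown, since TPM do not keep it. Markers of the proximal tubule (10 genes, none at 0) summed to 49300 to 56700 TPM in PBS, which fits the labelled tissue, 4600 to 7780 in cisplatin, 38900 to 46800 with NMN and 33100 to 39900 with NR. Markers of injured tubule (6 genes) summed to 410 to 630 TPM in PBS, 11000 to 13400 in cisplatin, 2190 to 4900 with NMN and 3700 to 5630 with NR. Kap made up most of the proximal tubule sum (mean 45800 TPM in PBS and 5380 in cisplatin). Spp1 made up most of the injured tubule sum (511 and 8190). With cisplatin all 10 proximal tubule markers were called as lower and all 6 injured tubule markers as higher, beside 18.6% and 40.7% of all genes. Endothelial markers (6 genes) summed to 92.5 to 172 TPM in PBS and 14.6 to 51 in cisplatin, distal convoluted tubule markers (4 genes) to 414 to 629 and 19 to 40.7, and red blood cell transcripts (5 genes) to 1880 to 3820 and 8.2 to 33.9. With NMN the red blood cell sum was 1360 to 2880 TPM and with NR 1270 to 2600. Adipose markers (6 genes) summed to 25.2 to 119 TPM in PBS, 200 to 394 in cisplatin, 25.2 to 103 with NMN and 23.2 to 375 with NR. Of 6 macrophage markers, Cd68 and Cd14 rose with cisplatin, Csf1r fell and 3 were not called. Principal cell markers (4 genes) summed to 268 to 327 TPM in PBS and 481 to 580 in cisplatin, where 2 rose and 2 fell. Of 5 thick ascending limb markers, 3 fell with cisplatin and 2 were not called. In whole tissue, fewer cells of a type and less RNA per cell cannot be told apart. The part that these shifts in cell makeup play in the results below was not tested.

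Cisplatin against PBS asks what the drug changed. All 10 genes changed: Arntl, Clock and Per1 rose, while Per2, Per3, both Nr1d genes and all 3 PAR bZIP genes fell. The groups did not overlap for any of the 10. A gene was called where limma's test on log2(TPM + 1) gave an adjusted p below 0.05. The background was high: 59.4% of all genes tested were called, 40.7% as higher and 18.6% as lower, and 50.8% had groups that did not overlap. The members' median log2 change was -1.16, beside 0.27 over all genes. All fold changes on the log2(TPM + 1) scale understate the change of genes at low levels.

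Arntl encodes BMAL1, the partner without which CLOCK cannot bind DNA. Its level was 0.43, 0.56, 0.15 and 0.19 TPM in the PBS libraries and 2.9, 2.06, 4.66 and 2.3 TPM in the cisplatin libraries. Every PBS library was under 1 TPM and every cisplatin library above 2. The mean was 8.96 times the PBS mean, and the log2 change was 1.55 ± 0.20 (SE, adjusted p = 3.55e-06). With a pseudocount of 0.1 in place of 1 the log2 change of Arntl was 2.88. Arntl passed the filter on low values only through the groups given cisplatin.

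Clock encodes the other partner of the activator pair. It read 2.76, 3.62, 4.13 and 4.53 TPM in PBS and 8.34, 5.2, 5.59 and 5.99 TPM in cisplatin, so that the groups stood apart by a narrow gap. The rise was 0.61 ± 0.19 (adjusted p = 0.00862). After scaling the libraries by median-of-ratios, which took the median of all genes from 0.27 to 0.004, the change of Clock was 0.35 and no longer called (adjusted p = 0.0627).

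The Per genes encode the repressors that carry CRY proteins to BMAL1 and CLOCK, and they did not move together. Per1, which also answers directly to glucocorticoids and cyclic AMP, read 15.25, 22.29, 19.01 and 17.35 TPM in PBS and 40.11, 38.33, 32.44 and 42.92 TPM in cisplatin. Each cisplatin library lay above each PBS library, and the mean was 2.08 times as high (log2 change 1.02 ± 0.14, adjusted p = 6.73e-06). Per3 went the other way, from 9.37, 13.6, 14.34 and 10.22 TPM in PBS to 4.9, 3.7, 3.11 and 4.76 TPM in cisplatin. Its log2 change was -1.33 ± 0.17 (adjusted p = 2.89e-06), a mean 2.89 times lower.

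Per2 read 8.72, 15.7, 14.16 and 7.95 TPM in PBS and 4.58, 5.22, 5.08 and 5.54 TPM in cisplatin. The cisplatin libraries lay close together and all below PBS. The log2 change was -0.999 ± 0.42, and its adjusted p of 0.0499 stood at the threshold. The call was lost in 10 of 17 other settings (adjusted p = 0.0516 to 0.161), among them the omission of any of 7 of the 8 libraries compared: without PBS library 1 the adjusted p was 0.0516, without PBS library 2 it was 0.129 and without PBS library 3 it was 0.111. Without cisplatin library 1, 2, 3 or 4 it was 0.0934, 0.0807, 0.0837 or 0.0739. The model shares its estimate of the spread over all groups, and without NMN libraries 2 and 4 the adjusted p for Per2 was 0.00155.

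Nr1d1 and Nr1d2 encode the heme-binding receptors that repress Arntl. Nr1d1 read 32.76, 57.09, 37.37 and 37.64 TPM in PBS and 24.75, 25.43, 21.08 and 18.86 TPM in cisplatin. It fell by 0.82 on the log2 scale (SE 0.20, adjusted p = 0.00155), the smallest fall among the 7, and Thra, with which it shares exon bases, fell by 0.93. Nr1d2 read 30.54, 44.51, 38.15 and 37.98 TPM in PBS and 14.04, 12.62, 11.28 and 13.09 TPM in cisplatin. Its cisplatin libraries spanned less than 3 TPM, and its log2 change was -1.49 ± 0.12 (adjusted p = 6.77e-09).

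The PAR bZIP genes included the largest falls of the 10, those of Dbp and Hlf. Dbp, the first output gene of the loop, read 118.02, 194.55, 184.72 and 168.34 TPM in PBS and 20.21, 22.52, 17.68 and 24.22 TPM in cisplatin. The lowest PBS library was more than 4 times the highest cisplatin library. The mean was 7.87 times lower and the log2 change -2.90 ± 0.19 (adjusted p = 3.92e-10), at rank 143 from the lowest of 12960 genes. Sphk2, on the opposite strand of Dbp, ranged from 11.07 to 13.02 TPM in PBS and from 13 to 15.33 TPM in cisplatin.

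Hlf read 18.99, 29.25, 25.86 and 35.19 TPM in PBS and 1.94, 3.21, 2.66 and 4.21 TPM in cisplatin, 9.09 times lower on the means. Its log2 change was -2.82 ± 0.22 (adjusted p = 4.77e-09), rank 156 from the lowest. Tef read 101.85, 127.43, 150.29 and 117.16 TPM in PBS and 46.44, 45.41, 29.84 and 47.38 TPM in cisplatin. It fell by 1.54 on the log2 scale (SE 0.16, adjusted p = 1.56e-07). Library 3 of the cisplatin group lay apart from the other 3 for Tef. Among these relatives, Tef thus kept the highest level after cisplatin, and Dbp and Hlf the lowest share of theirs.

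The opposed moves can be read within each library. Dbp over Arntl, a ratio of TPM, was 274, 347, 1230 and 886 in PBS and 6.97, 10.9, 3.79 and 10.5 in cisplatin. With NMN it was 121, 155, 128 and 114, and with NR 85.4, 134, 245 and 184. Every cisplatin library lay below every library of the other groups, which follows by construction, since Dbp was lowest and Arntl highest in these libraries. The ratios with a precursor lay between cisplatin and PBS in each case.

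**Figure D2:**
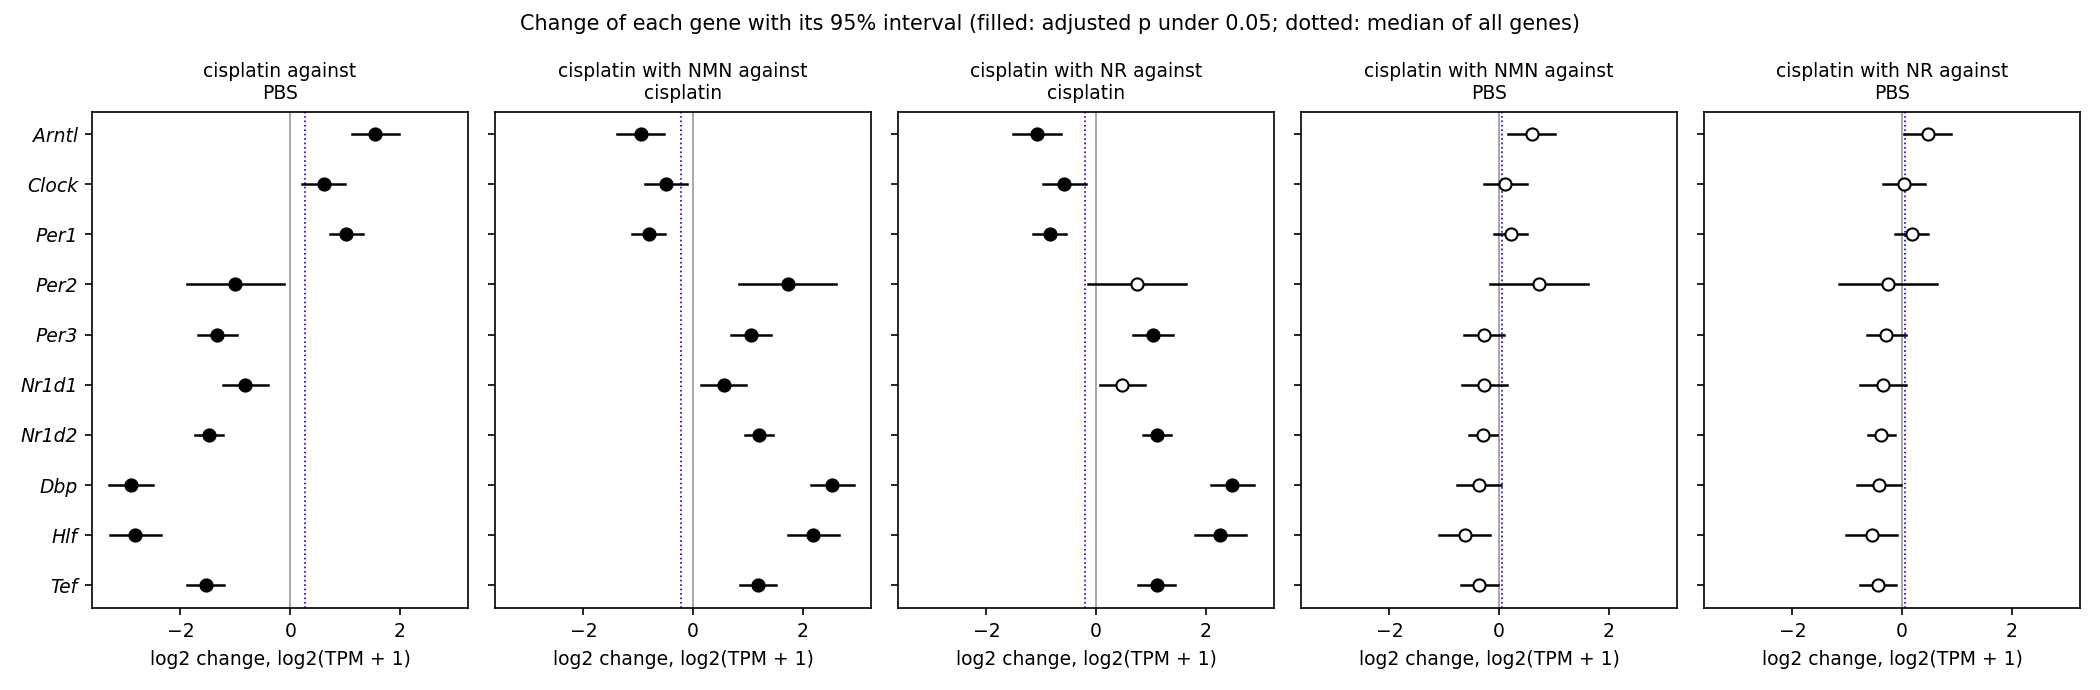
Log2 change of each of the 10 genes in each comparison on the log2(TPM + 1) scale, with 95% intervals. Filled points have an adjusted p below 0.05 and the dotted blue line is the median of all genes tested. Against PBS, all 10 points are filled for cisplatin and none for the NMN or NR groups.

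NMN ahead of cisplatin, compared with cisplatin alone, asks what this precursor changed. All 10 genes were called and none of the groups overlapped: the 7 that fell with cisplatin were higher and the 3 that rose were lower. Of all genes, 49.1% were called (15.1% higher, 34% lower), and 44.3% had groups that did not overlap. The members' median log2 difference was 1.12, beside -0.23 over all genes. This comparison and the one above share the cisplatin libraries, so a high value there enters both.

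With NMN, the activator Arntl read 0.79, 0.97, 1.01 and 1.21 TPM, all below the lowest cisplatin library (log2 difference -0.96 ± 0.20, adjusted p = 0.000819). Its partner Clock, at 3.03, 4.03, 4.49 and 5.07 TPM, differed by -0.50 ± 0.19 (adjusted p = 0.0335). The call for Clock was lost in 7 of 17 other settings, among them without cisplatin library 1 (adjusted p = 0.12), cisplatin library 4 (0.0524), NMN library 1 (0.115) or NMN library 2 (0.0613). Per1 read 18.21, 25.57, 22.69 and 19.55 TPM and differed by -0.81 ± 0.14 (adjusted p = 0.000134).

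Per2 read 6.82, 57.56, 13.2 and 24.36 TPM with NMN. The highest library was more than 8 times the lowest, and its SD was 88.6% of the mean, more than for any other member in any group. The log2 difference from cisplatin was 1.73 ± 0.42 (adjusted p = 0.00266), 1.21 without NMN library 2 (adjusted p = 0.00463) and 0.79 without NMN libraries 2 and 4 (adjusted p = 0.0399). Per3, at 7.48, 10.86, 10.85 and 9.05 TPM, was higher by 1.05 ± 0.17 (adjusted p = 7.11e-05).

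The receptor gene Nr1d1 read 26.78, 47.29, 28.25 and 34.24 TPM with NMN and was higher by 0.55 ± 0.20 (adjusted p = 0.0265). That call was lost in 6 of 17 other settings, among them without cisplatin library 3 (adjusted p = 0.0561), cisplatin library 4 (0.0775), NMN library 2 (0.107) or NMN library 4 (0.0544). Nr1d2 read 28.4, 33.76, 31.57 and 27.95 TPM and was higher by 1.19 ± 0.12 (adjusted p = 3.68e-07). Its lowest NMN library was well above its highest cisplatin library.

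Of the outputs, Dbp read 95.52, 149.91, 129.29 and 137.86 TPM with NMN, 6.06 times the cisplatin mean (log2 difference 2.53 ± 0.19, adjusted p = 7.77e-09). Hlf read 13.95, 15.88, 14.68 and 25.11 TPM, 5.79 times the cisplatin mean (2.19 ± 0.22, adjusted p = 3.76e-07). Tef read 75.21, 114.49, 97.32 and 99.69 TPM (1.18 ± 0.16, adjusted p = 8.19e-06). Every NMN library lay above every cisplatin library for these 3 genes.

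NR ahead of cisplatin, compared with cisplatin alone, gave 5 genes that were higher, 3 that were lower and 2 that were not called, Per2 and Nr1d1. The groups did not overlap for 9 of the 10. Of all genes, 46.6% were called (14.4% higher, 32.2% lower), and 41.8% had groups that did not overlap. The members' median was 0.89, beside -0.20 over all genes. The cisplatin libraries are the same as in the comparison with NMN.

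With NR, Arntl read 1, 1.14, 0.56 and 0.67 TPM and was lower than in cisplatin by a log2 difference of -1.08 ± 0.20 (adjusted p = 0.000318). Clock read 4.32, 3.22, 3.17 and 4.74 TPM (-0.58 ± 0.19, adjusted p = 0.016), and its call was lost without cisplatin library 1 (adjusted p = 0.0622) or NR library 3 (0.0504). Per1 read 17.37, 21.89, 21.44 and 23.12 TPM (-0.85 ± 0.14, adjusted p = 0.000108). All 3 genes lay below the cisplatin libraries in each NR library.

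Among the repressors, Per2 read 6.54, 11.79, 10.34 and 8.93 TPM with NR, every value above the cisplatin libraries, but its log2 difference of 0.74 (95% interval -0.14 to 1.63) had an adjusted p of 0.159. With only the NR and cisplatin groups in the model the adjusted p for Per2 was 0.00544. Per3 read 9.25, 11.36, 8.55 and 8.76 TPM and was higher by 1.04 ± 0.17 (adjusted p = 8.85e-05). Nr1d1 read 25.29, 41.67, 28.5 and 32.67 TPM, where the lowest library overlapped cisplatin by less than 1 TPM. Its difference was 0.48 (0.06 to 0.89, adjusted p = 0.0557) and was called in 6 of 17 other settings, among them without NR library 1 (adjusted p = 0.0337). Nr1d2 read 27.09, 30.19, 27.7 and 29.75 TPM and was higher by 1.11 ± 0.12 (adjusted p = 1.03e-06).

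The outputs with NR again stood above cisplatin. Dbp read 85.4, 152.23, 137.07 and 123.42 TPM (log2 difference 2.48 ± 0.19, adjusted p = 1.19e-08). Hlf read 14.49, 14.89, 21.63 and 21.59 TPM (2.27 ± 0.22, adjusted p = 3.27e-07). Tef read 79.52, 100.63, 91.43 and 91.14 TPM (1.102 ± 0.16, adjusted p = 2.19e-05). The means were 5.89 times the cisplatin mean for Dbp and 6.04 times for Hlf.

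Against PBS, limma called none of the 10 genes with NMN and none with NR, although other settings called up to 2 with NMN and up to 3 with NR. The members' median log2 difference from PBS was -0.274 with NMN and -0.316 with NR, beside 0.045 and 0.061 over all genes. With NMN, 6% of all genes were called (5.89% higher, 0.116% lower), and at an unadjusted p under 0.05 the counts were 4 of the 10 members and 16.4% of all genes. The 4 were Arntl (log2 difference 0.59, 95% interval 0.16 to 1.02), Nr1d2 (-0.30, -0.55 to -0.04), Hlf (-0.63, -1.096 to -0.16) and Tef (-0.36, -0.69 to -0.03). Only Arntl, of the members, had groups that did not overlap, beside 10.2% of all genes. Its adjusted p was 0.116 with a pseudocount of 1 and 0.0325 with a pseudocount of 0.1. Hlf was called without NMN library 4 (-0.81, adjusted p = 0.031). After median-of-ratios scaling Nr1d2 (-0.37, adjusted p = 0.013) and Tef (-0.43, adjusted p = 0.0411) were called as lower.

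With NR, 10% of all genes were called against PBS (8.79% higher, 1.21% lower). At an unadjusted p under 0.05 there were 5 of the 10 members and 22.1% of all genes. These were Arntl (log2 difference 0.47, 95% interval 0.04 to 0.90), Nr1d2 (-0.38, -0.63 to -0.12), Dbp (-0.42, -0.82 to -0.03), Hlf (-0.56, -1.03 to -0.09) and Tef (-0.44, -0.77 to -0.11). Nr1d2 and Tef had groups that did not overlap, beside 14.8% of all genes, and adjusted p-values of 0.0578 and 0.0943. Without PBS library 1, Nr1d2 was called (-0.47, adjusted p = 0.0161). Median-of-ratios scaling called Nr1d2 (adjusted p = 0.00118), Tef (adjusted p = 0.0066) and Dbp (adjusted p = 0.0418), all lower than PBS. Both precursor groups are set against the same PBS libraries. Their intervals for Dbp, Hlf and Tef reach down to log2 differences of -0.76, -1.096 and -0.69 with NMN and of -0.82, -1.03 and -0.77 with NR, so that absence of a call does not show levels equal to PBS.

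NMN and NR are related molecules, NMN being NR with a phosphate group, and both groups were collected on the same day after cisplatin, at hours and after doses that no source used here states. The values are therefore given side by side. Between the groups limma called none of the 10 genes and none of the 12960 (percent called 0), and at an unadjusted p under 0.05 there were 1 member and 370 genes (2.85%). The member was Per2 (log2 difference of NMN over NR 0.98, 95% interval 0.09 to 1.87, unadjusted p = 0.0322, adjusted p = 1). It was 0.47 without NMN library 2 and 0.05 without NMN libraries 2 and 4. None of the 10 had groups that did not overlap, beside 1.64% of all genes. The other 9 differences ran from -0.07 for Hlf (-0.54 to 0.40) to 0.12 for Arntl (-0.31 to 0.55), and the interval of the most precise, Nr1d2, ran from -0.18 to 0.33.

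The other genes of the clock were read from a list of 15, of which 14 were tested and Rorb was too low. With cisplatin 8 rose, 1 fell and 5 were not called, with a median log2 change of 0.63 beside 0.27 over all genes. Of all genes 59.4% were called, so the number called is near the background. After median-of-ratios scaling 8 rose and 2 fell. Npas2, which can stand in for Clock as the partner of BMAL1, went from 0.273 ± 0.055 to 3.5 ± 2.84 TPM (log2 change 1.57 ± 0.36, adjusted p = 0.00111), with cisplatin libraries at 4.01, 2.28, 7.19 and 0.52 TPM. The rise of Npas2 was 0.81 and not called without PBS library 1 and cisplatin libraries 1 and 3 (adjusted p = 0.0608). No PBS library (highest 0.35 TPM) and no NMN library (highest 0.64 TPM) of Npas2 reached 1 TPM. Npas2 thus passed the filter only through cisplatin and NR libraries. The co-repressor genes Cry1 (1.08 ± 0.306 to 5.13 ± 0.777 TPM, adjusted p = 8.68e-06) and Cry2 (5.39 ± 0.514 to 9.22 ± 1.97 TPM, adjusted p = 0.00112) rose. Both thus went in the direction of Per1 and not of Per2 and Per3.

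Nfil3, the repressor that competes with DBP, HLF and TEF at D-boxes, rose most of the 14 on the log2(TPM + 1) scale, whereas the ratio of mean TPM was higher for Npas2 (12.8) than for Nfil3 (8.99). It read 2.7, 1.4, 0.68 and 1.26 TPM in PBS and 11.41, 12.94, 12.59 and 17.38 TPM in cisplatin (log2 change 2.58, adjusted p = 3.02e-08). It read 4.05, 4.18, 4.37 and 3.17 TPM with NMN and 4.76, 2.39, 5.63 and 4.9 TPM with NR. Nfil3 was called against PBS in both precursor groups, with log2 differences of 1.03 (adjusted p = 0.0097) with NMN and 1.13 (adjusted p = 0.00338) with NR, where none of the 10 members was. Whether Nfil3 differs from the members in this was not tested. The ratio of Dbp over Nfil3 ran from 43.7 to 272 in PBS, from 1.39 to 1.77 in cisplatin, from 23.6 to 43.5 with NMN and from 17.9 to 63.7 with NR. The cisplatin libraries were below all others for Dbp and above all others for Nfil3, so that the ratio sets them apart by construction.

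Bhlhe40 and Bhlhe41, which encode the E-box repressors DEC1 and DEC2, rose with cisplatin (Bhlhe40 from 32.9 ± 5.97 to 66 ± 3.5 TPM, adjusted p = 3.24e-06). The PER kinase genes Csnk1d (23.4 ± 1.58 to 48.5 ± 4.45 TPM, adjusted p = 1.25e-07) and Csnk1e (8.17 ± 0.919 to 25.2 ± 7.64 TPM, adjusted p = 1.8e-05) rose as well. Btrc, a ubiquitin ligase subunit that marks PER for breakdown, fell (-0.66, adjusted p = 0.00665). Rora, an activator at the same elements as the REV-ERB repressors, was not called (0.01, adjusted p = 0.962). Ciart, a repressor gene of the loop, was at -0.88 and not called (adjusted p = 0.0615). It was called without PBS library 1 (-1.05, adjusted p = 0.042), without cisplatin library 1 (-1.15, adjusted p = 0.0207) or without cisplatin library 4 (-1.07, adjusted p = 0.0397), and after median-of-ratios scaling (-1.16, adjusted p = 0.0128).

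With NMN over cisplatin, 8 of these 14 were lower and 1, Btrc, was higher, and with NR 7 were lower and none higher, beside 34% of all genes lower with NMN and 32.2% with NR. The calls of Btrc (adjusted p = 0.0463) and Cry2 (adjusted p = 0.0472) with NMN were each lost in 10 of 17 other settings. Among the single libraries, the highest adjusted p for Btrc was 0.149, without cisplatin library 4, and it was also lost without cisplatin library 2 (0.0558) or 3 (0.14) and NMN library 1 (0.0536), 2 (0.14) or 4 (0.0729). Cry2 was lost without cisplatin library 1 (0.167) or 2 (0.0939) and NMN library 1 (0.121), 2 (0.0532) or 4 (0.135). The call of Npas2 with NR (-0.97, adjusted p = 0.036) was lost in 9 of 16 settings, among them without cisplatin library 1 (0.0996) or 3 (0.144) and NR library 3 (0.0941) or 4 (0.0907). Btrc with NR was not called (0.47, adjusted p = 0.052), but was in 6 of 17 settings, among them without cisplatin library 1 (0.00454) or NR library 2 (0.04). After median-of-ratios scaling the counts were 7 lower and 1 higher with NMN, and 6 lower and 1 higher with NR. Cry1 differed from cisplatin by -0.88 with NMN (adjusted p = 0.00331) and by -0.83 with NR (adjusted p = 0.00543). Against PBS, Nfil3 was the single one called with NMN, and Cry1 (0.74, adjusted p = 0.0438), Bhlhe40 (0.47, adjusted p = 0.0262), Nfil3 and Csnk1d (0.40, adjusted p = 0.0166) were called with NR. Of these, Cry1 was lost in 9 of 16 other settings: without PBS library 1, 3 or 4 its adjusted p was 0.0947, 0.0614 or 0.131, and without NR library 1, 3 or 4 it was 0.0828, 0.149 or 0.0821. Bhlhe40 was lost in 6 of 17, with an adjusted p of 0.0883, 0.0513 or 0.0862 without PBS library 1, 3 or 4 and of 0.0927 without NR library 4. Csnk1d was lost in 2 of 17, neither of them an omission of 1 library.

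**Figure D3:**
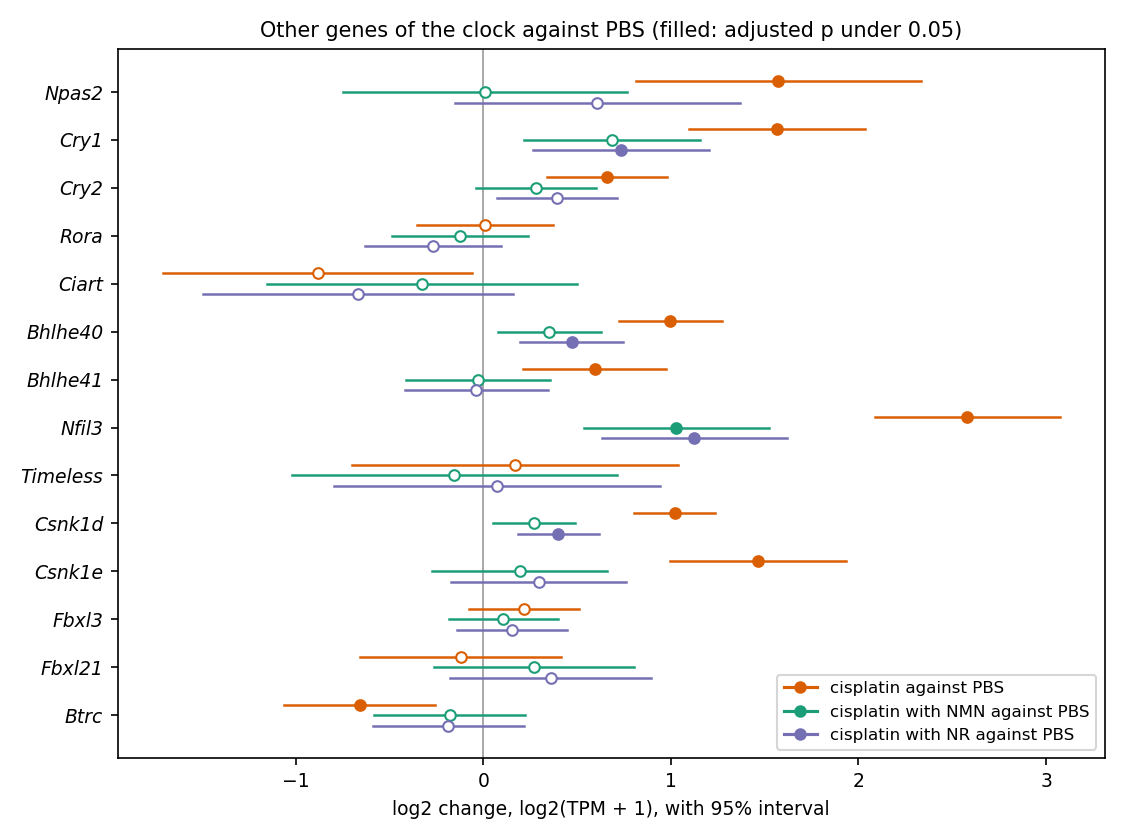
Log2 difference from PBS of the 14 other clock genes tested, in the cisplatin, NMN and NR groups, on the log2(TPM + 1) scale. Nfil3 has the highest value with cisplatin, 2.58, and is at 1.03 with NMN and 1.13 with NR.

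Genes known as outputs of the clock were read from a list of 10, all tested. With cisplatin 2 rose, 4 fell and 4 were not called (after median-of-ratios scaling 1 rose and 4 fell), with a median of -0.09, beside 40.7% of all genes higher and 18.6% lower. Usp2, a deubiquitinase gene with a strong rhythm in many tissues, read 41.5, 49.17, 52.33 and 69.16 TPM in PBS and 24.42, 23.68, 11.32 and 23.31 TPM in cisplatin (log2 change -1.35, adjusted p = 0.000133). Slc9a3, a sodium-proton exchanger gene, fell from 26.2 ± 5.28 to 4.93 ± 1.19 TPM (adjusted p = 2.67e-08). Gys2, a glycogen synthase gene, fell from 11.4 ± 3.22 to 0.285 ± 0.142 TPM (adjusted p = 6.47e-06). No cisplatin library of Gys2 reached 1 TPM (highest 0.48), so it passed the filter through the other groups. Slc9a3 is also a gene of the proximal tubule, whose markers fell as a list (10 of 10), and the share of that fall in its value was not tested.

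Scnn1a, a subunit of the epithelial sodium channel, was lower with cisplatin (-0.48, adjusted p = 0.0207). That call was lost without PBS library 4 (adjusted p = 0.0767), cisplatin library 1 (0.0521) or cisplatin library 3 (0.0875). Wee1, a cell cycle kinase gene, rose by 0.45 (adjusted p = 0.0173), and this call was lost without cisplatin library 1 (0.0586) and after median-of-ratios scaling (0.258). Tspan4 rose from 51.1 ± 5.73 to 155 ± 4.43 TPM (adjusted p = 2.49e-09). Por, Alas1, Ppara and Avpr2 were not called. Over cisplatin, Usp2, Slc9a3 and Gys2 were higher and Tspan4 lower with either precursor. The log2 difference of Usp2 was 1.19 with NMN (adjusted p = 0.000645) and 0.95 with NR (adjusted p = 0.00416). Against PBS, Tspan4 was the only output called in the main analysis, as higher with each precursor. Tspan4 was also called as higher in all 17 other settings. Slc9a3 was called as lower than PBS with NR in 2 of 17 other settings. These were the library number as a block (-0.48, adjusted p = 0.035) and the omission of NR library 4 (-0.65, adjusted p = 0.0421). Of all genes, 5.89% were called as higher than PBS with NMN and 8.79% with NR.

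Glucocorticoids set the phase of the clock in the kidney and act on Per1 directly, so 8 genes known to answer to them were read beside the members. With cisplatin 3 rose, 1 fell and 4 were not called (median log2 change 0.11), and 3 rose and 2 fell after median-of-ratios scaling. The number called was no higher than the background of 59.4%. Fkbp5, a feedback chaperone of the glucocorticoid receptor, read 17.07, 31.57, 23.68 and 22.85 TPM in PBS and 87.96, 113.01, 73.53 and 105.69 TPM in cisplatin (log2 change 1.97, adjusted p = 2.04e-08). Zbtb16 rose from 0.428 ± 0.198 to 5.57 ± 0.583 TPM (adjusted p = 6.22e-09) and Ddit4 from 13.8 ± 2.15 to 55.8 ± 2.91 TPM (adjusted p = 6.29e-09). No PBS library of Zbtb16 reached 1 TPM (highest 0.68), so it passed the filter through the other groups. The list did not move as a block: Klf9 fell (-0.47, adjusted p = 0.00896), while Tsc22d3 was at 53 ± 14.6 and 55.7 ± 5.81 TPM (adjusted p = 0.632) and Sgk1 at 61.7 ± 14 and 62.3 ± 8.71 TPM (adjusted p = 0.887). Against PBS, Fkbp5 was called with NMN (0.77, adjusted p = 0.00943) and with NR (1.15, adjusted p = 0.000164), as was Ddit4 (0.62, adjusted p = 0.0228, and 0.95, adjusted p = 0.000428). The call of Ddit4 with NMN was lost in 4 of 17 other settings, among them without PBS library 1 (adjusted p = 0.0964) or NMN library 3 (0.108). Zbtb16 was called as higher than PBS with NR, also in all 16 other settings (adjusted p = 0.00072 to 0.0146). With NMN it was not called, but was in 6 of 16 other settings. In the main analysis 2 of the 8 were thus higher with NMN and 3 with NR, beside 5.89% and 8.79% of all genes.

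NAD is tied to the clock through Nampt, the rate-limiting enzyme of NAD salvage and an E-box target, and through Sirt1, an NAD-dependent deacetylase that acts on clock proteins. Nampt read 23.99, 25.05, 29.89 and 33.05 TPM in PBS and 31.3, 35.54, 24.72 and 37.67 TPM in cisplatin. The groups overlapped and Nampt was not called (0.19, adjusted p = 0.31). Sirt1 rose from 4.9 ± 0.763 to 7.53 ± 1.16 TPM (0.53, adjusted p = 0.00929), a call lost after median-of-ratios scaling (0.26, adjusted p = 0.13). Parp1, whose enzyme consumes NAD, was not called (-0.13, adjusted p = 0.508), but was after that scaling (-0.42, adjusted p = 0.0189). None of the 3 was called with either precursor, over cisplatin or over PBS.

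Beyond the group means, most pairs of these genes varied in the same direction from library to library. Each library's deviation from its own group mean was taken on the log2(TPM + 1) scale and compared between members over the 16 libraries, as a description without a test. Members share libraries, so anything that shifts a whole library enters every pair. Of 45 pairs, 37 had a positive correlation and 8 a negative one, with a median Pearson r of 0.39. The share of positive pairs over all genes was not computed. Over 8649 tested genes outside the members, the median r was 0.28 with Dbp and -0.17 with Arntl, so a positive r with Dbp was common. The closest were Per1 and Nr1d2 (r = 0.88, Spearman's rho = 0.90, r = 0.89 without the 2 farthest libraries), Per3 and Tef (0.83, 0.84 and 0.80) and Dbp and Tef (0.81, 0.73 and 0.82). Per1 and Dbp, which moved in opposite directions with cisplatin, varied in the same direction within groups (0.83, 0.74 and 0.74). Arntl and Tef were at -0.46 (rho -0.28), but at -0.09 without the 2 farthest libraries. In each pair, the 2 farthest libraries were picked by the first-named gene alone, so an extreme library of the second could stay in.

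**Figure D4:**
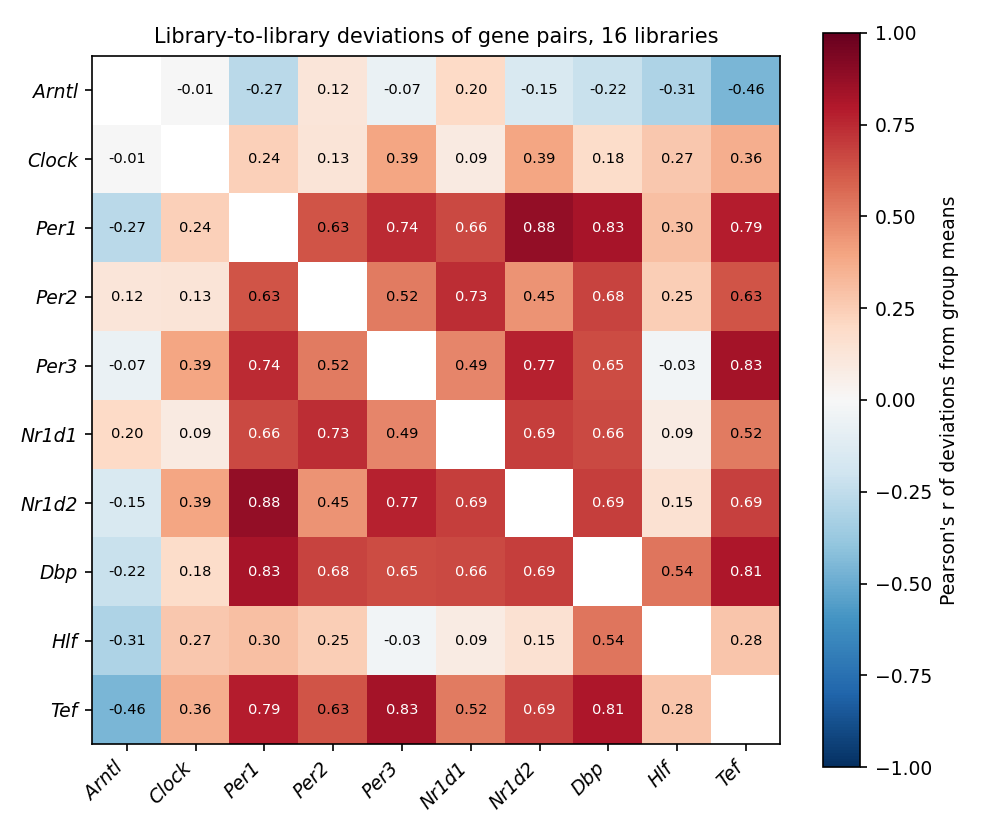
Pearson correlation of each pair of the 10 genes over the deviations of 16 libraries from their group means. Of the 45 pairs, 37 are above 0, with Per1 and Nr1d2 the closest at 0.88.

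Some of the highest and lowest values fell in the same library number across groups. Nr1d1 was highest in library 2 of all 4 groups and Hlf lowest in library 1 of all 4. No other member had the same number at an end in all 4 groups, and Arntl, Per1, Per3 and Tef shared a highest number in only 2. How often this occurs over all genes was not computed. Dbp was highest in library 2 and lowest in library 1 of 3 groups, and in cisplatin it was highest in library 4 and lowest in library 3. The labels do not say what a library number stands for.

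The genes most like Dbp in these deviations, of 8649 tested genes with a mean of at least 5 TPM, were Ogn (r = 0.94), Herpud1 (0.93), Myl9 (0.92), Atp5b (0.91) and Cxcl12 (0.91). The least like were Gcnt2 (-0.78), Ugcg (-0.77), Ric8a (-0.71), Dhps (-0.71) and Cyp4a12a (-0.70). Over all 8649 genes the median r with Dbp was 0.28, percentile 5 was -0.25 and percentile 95 was 0.68. For Arntl the most alike were Dnmt3a (0.77), Coa7 (0.77), Tmc6 (0.77), Naa35 (0.77) and Msantd2 (0.75). The least alike were Emc10 (-0.87), Repin1 (-0.84), Tmed4 (-0.84), Il17ra (-0.83) and Dcaf4 (-0.83). The median r with Arntl was -0.17, percentile 5 was -0.59 and percentile 95 was 0.33. Arntl was low in PBS (0.15 to 0.56 TPM), and the r of these ranked genes were not recomputed without the farthest libraries.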

How the data were processed

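Gene expression was measured by RNA-seq of total RNA in 16 whole-kidney libraries, 4 in each of 4 groups given by the treatment label. The authors deposited 1 table of TPM with 2 decimals. The submitters' processing notes name STAR 2.4.1d, Trim Galore, DESeq2 1.10.1, HTSeq 0.6.1 and GRCm38 (mm10), with no role or order. Annotation, strand setting and transcript lengths: not given in the sources used here. Because TPM keep no depth, no count test was run.

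Symbols were read from the last brackets of each gene name, and 94 of 23982 entries that share a symbol were summed. Genes that reached 1 TPM in 4 or more libraries were fitted as log2(TPM + 1) in limma 3.58.1 (R 4.3.3, statmod 1.5.0; 4 group means, empirical Bayes with trend and robust), with Benjamini-Hochberg adjustment over all 12960 genes and calls at an adjusted p below 0.05. Scripts ran under Python 3.11.15 (numpy 2.4.6, pandas 2.3.3, matplotlib 3.10.9), and the fit was tested on simulated data. Alternatives were no trend or robust fit, median-of-ratios scaling, a pseudocount of 0.1, a minimum of 5 TPM or none, only the groups compared, the library number as a block, and omission of each library. After the data were seen, 2 omissions were added: PBS 1 with cisplatin 1 and 3, and NMN 2 with NMN 4. The members and gene lists were chosen with earlier results of these data known. Named genes are the members, the genes of the lists given (other clock genes, outputs, glucocorticoid-responsive, NAD link), and, for Dbp and Arntl, the 5 genes with the highest and the 5 with the lowest correlation of deviations, leaving out predicted genes, Riken clones, pseudogenes and mitochondrially encoded genes. From the list of other clock genes, 1 gene is not reported here. Positions are from GENCODE vM21 and promoters from RefSeq GRCm38.p6.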

Additional observations from a re-analysis of the deposited data

Results flagged for a closer look

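Of the 40 sets of 4 libraries (10 genes in 4 groups), 1 held a library far from the other 3. Tef in the cisplatin group was at 29.84 TPM in library 3, and the gap to the next library was 0.888 of the group's range, above Dixon's 95% critical value. About 1 in 20 such sets would be marked by chance. The fall of Tef with cisplatin was called in every setting run, the omission of that library included.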

How the results depend on the processing

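No value for a member changed sign among those called: of 1014 values over all comparisons and settings, 964 kept their side of the threshold, 28 lost it and 22 gained it. With cisplatin against PBS, 10 members were called, and 9 to 10 with any 1 library left out. With NMN over cisplatin it was 10, and 8 to 10 with 1 library left out, and with NR over cisplatin 8, and 7 to 9. Dbp, Hlf, Tef, Nr1d2, Per1 and Per3 were called in these 3 comparisons under every setting, and so was Arntl wherever it was tested. It did not pass the minimum of 5 TPM. Against PBS the counts depended on the setting. With NMN they were 0 in the main analysis, 2 after median-of-ratios scaling, 1 with a pseudocount of 0.1, 1 with the replicate block, and 0 to 1 with 1 library left out. With NR they were 0, 3 after median-of-ratios scaling, 1 with a minimum of 5 TPM, 2 with the replicate block, 2 without PBS library 1 and cisplatin libraries 1 and 3, and 0 to 1 with 1 library left out. Between NMN and NR no setting called a member. The cause of these shifts was not tested.

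The library numbers were checked as a pairing and did not meet the rule that every same-numbered pair correlate above 0.1: the correlations of deviations ran from -0.13 to 0.026 between PBS and cisplatin, from 0.048 to 0.287 between PBS and NMN, from 0.049 to 0.27 between PBS and NR, and from 0.07 to 0.225 between NMN and NR. Each of the 4 NMN libraries correlated best with the NR library of its own number, and each of the 4 PBS libraries with its own number in both precursor groups. In the other direction, 3 of the 4 NMN and 2 of the 4 NR libraries correlated best with the PBS library of their number. Between cisplatin and either precursor it was 2 of 4 each way, and between PBS and cisplatin 0. This is a hint from the data and not the design. With the number as a replicate block, 10, 10 and 9 members were called for cisplatin against PBS, NMN over cisplatin and NR over cisplatin. Against PBS, the block called Hlf with NMN (adjusted p = 0.0122) and Dbp (0.0363) and Hlf (0.0183) with NR.

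TPM keep no depth, so the counting error of low genes such as Arntl in PBS is unknown. The median log2 difference over all genes moved under median-of-ratios scaling from 0.268 to 0.004 with cisplatin, from -0.226 to -0.018 with NMN over cisplatin and from -0.203 to -0.02 with NR over cisplatin.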
